A study of Mus musculus with 16 samples.

Results

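C1qb and C1qc encode the B and C chains of C1q, the recognition molecule that starts the classical complement pathway, and each of them holds 1 DM (differentially methylated) site in the mouse liver m6A-seq data. The rows were chosen by gene name from the authors' deposited table of DM sites, so 2 of its 622 sites are described here. A site is in that table because it was selected on the authors' test of genotype, so that being listed is not a finding of its own. The size, sign and p value of that test were not used, and the direction of the change in methylation at C1qb and C1qc is therefore not given here.
The livers came from 4 wild type mice, of genotype Albumin-Cre;Mettl14+/+, and 4 mice with a liver-specific Mettl14 knockout, which carry Albumin-Cre and Mettl14 flox/flox. All 8 mice had been kept on a 42% high-fat diet for 3 months, and both genotypes carry the Cre transgene. Each mouse gave 1 INPUT library of fragmented mRNA and 1 m6A-IP library of the fragments pulled down with an antibody against m6A, which makes 16 libraries. Ages of the mice are not given in the sources used here.

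C1q is built from 3 chains, A, B and C, each with a collagen-like stalk of repeated Gly-X-Y triplets and a globular head that binds antibody complexes and dying cells. Most plasma proteins of the complement system are made by hepatocytes, whereas C1q comes mainly from cells of the macrophage lineage, in the liver the Kupffer cells. The albumin promoter, which drives Cre here, is active in hepatocytes. METTL14 is the RNA-binding subunit of the methyltransferase complex that places m6A, mostly within the RRACH sequence and often near the stop codon.
Whole liver was sequenced, so that fewer cells of a type and less RNA per cell cannot be told apart. RADAR divides the IP counts by a factor for the INPUT reads of the gene, but the deposited table has no count for any mouse. The levels of C1qb, C1qc and the Kupffer cell markers in each genotype, the spread between mice and the depth of the libraries are thus unknown here. The deletion itself could not be checked either without expression values. The table has 0 sites in Mettl14, which says nothing about the deletion.

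The C1qb site is 50 bases long and lies on chr4:136882173-136882222 of mm10, on the minus strand, in the CDS within exon 2 of 3. The C1qc site is 98 bases long and lies on chr4:136889993-136890090, also on the minus strand, in exon 3 of 3, where it covers the end of the CDS, the stop codon and the start of the 3′UTR. They are shown because these letters carry what the sites share and where they differ. For C1qb the whole site is given with in-frame glycine codons in capitals, and for C1qc the 48 coding bases of the site, from chr4:136890043-136890090, with the stop codon in capitals, both 5′ to 3′ on the transcript strand.
C1qb: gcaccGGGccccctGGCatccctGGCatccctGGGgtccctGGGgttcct
C1qc: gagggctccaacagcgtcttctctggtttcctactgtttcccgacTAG
The C1qb site reads as a collagen repeat. It holds 16 whole codons, of which 5 encode glycine, each 3 codons from the next. The C1qc site has 2 glycine codons among its 16 whole codons, the stop codon included, and comes from the end of the globular head.

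The 3 C1q genes stand side by side on chromosome 4 and are all transcribed from the minus strand. C1qb (ENSMUSG00000036905.8) runs from 136880129 to 136886187, C1qc (ENSMUSG00000036896.5) from 136889804 to 136893065, and C1qa (ENSMUSG00000036887.5), which encodes the A chain, from 136895917 to 136898803. Only 3616 bases separate C1qb from C1qc and 2851 bases C1qc from C1qa, and the whole cluster spans 18675 bases. The C1qb and C1qc sites are 7770 bases apart in the genome and belong to different transcripts.
C1qa has 0 listed sites. A gene without a site may have been tested without passing or may not have been tested, and the table does not tell these apart. Of the 5 protein-coding genes next to the cluster on either side, from Luzp1 to Ephb2 and from Epha8 to Cela3a, 0 have a listed site. Within 1000000 bases of the C1qc site, the other listed sites are in Cnr2, Hspg2 and Usp48, which were named after their positions were seen, and the nearest of them is 680190 bases away. Neither site overlaps another annotated gene on either strand.

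The 3 transcripts are built alike, with 3 exons and a start codon in exon 2. The spliced transcript of C1qb is 1088 bases long, that of C1qc 1203 bases and that of C1qa 1040 bases. These are short transcripts among those with a DM site: the median length over the 569 sites that could be placed on a transcript was 3764 bases (quartiles 2608 and 5466). Only 15 of the 569 sites lie on a transcript no longer than that of C1qb, and 20 on one no longer than that of C1qc, the C1q sites included.
Although the genes are alike, the sites are at opposite ends of them. The C1qb site covers bases 252 to 301 of its transcript, and its first base is 85 bases after the first coding base. The C1qc site covers bases 917 to 1014 of its transcript. Its midpoint is at 80.3% of the transcript length, against 25.4% for the C1qb site.

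**Figure D1:**
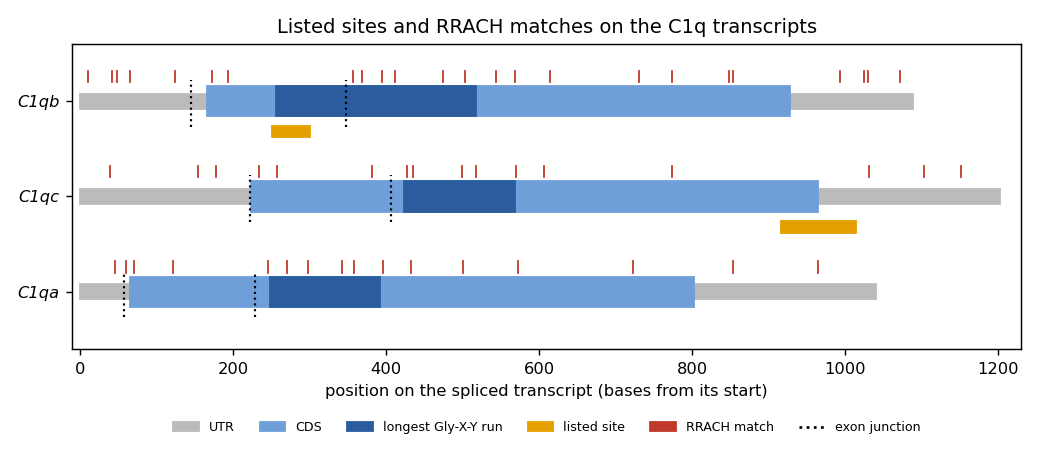
The spliced C1qb, C1qc and C1qa transcripts are drawn to scale in bases from the transcript start, with UTRs in grey, CDS in light blue, the longest run of Gly-X-Y codons in dark blue, exon junctions as dotted lines, RRACH matches as red ticks and the listed sites as orange bars. The C1qb site lies in exon 2 at the start of the Gly-X-Y run, the C1qc site lies across the end of the CDS, and no red tick stands above either orange bar.

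Measured from the last base of the stop codon, the midpoint of the C1qc site is 1.5 bases downstream. No other placed site is nearer: 2 of the 569, C1qc included, are at most this far from the stop codon. The site holds 48 coding bases, the stop codon among them, and 50 bases of 3′UTR. It is 1 of 17 placed sites that hold a whole stop codon, which is 2.99% (95% Wilson interval 1.87% to 4.73%, counting error over sites only). The midpoint of the C1qb site is far upstream, at -651.5 bases from the last base of the stop codon. Counted in bases, this is close to the median of -728.5 bases (quartiles -1379 and -254) for the 332 placed sites in the CDS. The CDS of C1qb is only 762 bases long with the stop codon, however, so the site lies near its start. Of the 332 sites, 40 have their first base within 100 bases of the first coding base, and C1qb, at 85 bases, is among them.

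**Figure D2:**
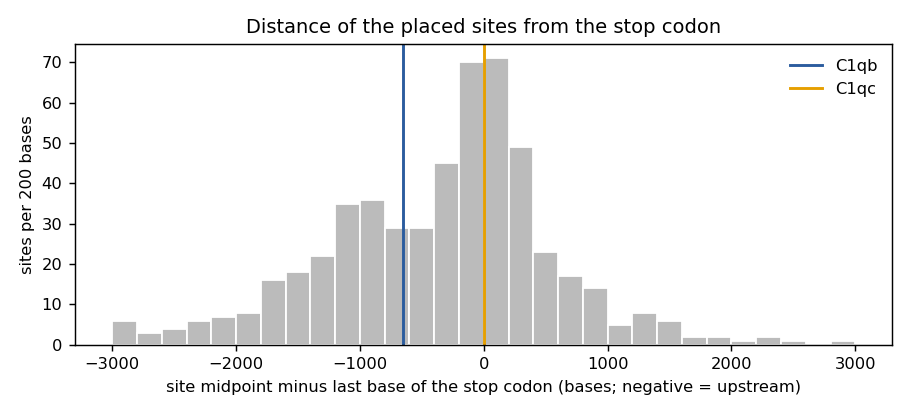
The histogram shows the distance in bases from the last base of the stop codon to the midpoint of each placed DM site, with negative values upstream, and the vertical lines mark C1qb (blue) and C1qc (orange). C1qc sits at 1.5 bases, inside the peak around the stop codon, and C1qb at -651.5 bases, outside it, while 33 of the 569 sites lie beyond the 3000 bases shown on either side.

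The sites also differ in their distance from exon junctions. Exon 2 of C1qb is 202 bases long, and the site lies 106 bases from its upstream edge and 46 bases from its downstream edge. Inner exons with a DM site are mostly longer, with a median of 548 bases (quartiles 159 and 1158) over 160 sites, of which 54 are in an exon of 202 bases or fewer. The C1qc site lies in a last exon of 796 bases, 509 bases from the only junction of that exon. Last exons hold 329 of the 569 placed sites, or 57.8%, and inner exons 160, or 28.1%.

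The position of the C1qb site on the protein could be read from the codons. The longest unbroken run of Gly-X-Y in C1qb has 29 triplets and covers codons 31 to 117 of 253. The site reaches from codon 29 to codon 45, so that all but its first 5 bases fall within this run. In C1qa and C1qc the longest unbroken run has 16 triplets in each, covering codons 62 to 109 of 245 in C1qa and codons 68 to 115 of 246 in C1qc. No site is listed in either of these runs. The C1qc site starts at codon 232, past the end of the run in that chain.

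Neither C1q site contains the m6A motif. RRACH (A or G, A or G, A, C, and then A, C or T) was searched on the transcript strand, and 0 matches were found in the C1qb site and 0 in the C1qc site. The wider motif DRACH, which also allows T in the first place and includes every RRACH match, and the core GGAC, which overlaps with it, had 0 matches in both sites as well. That no match was found says only that these letters are not in the window.
For comparison, 378 of all 622 DM sites hold RRACH, which is 60.8% (95% Wilson interval 56.9% to 64.5%, counting error over sites only). The C1qb site is 1 of 243 sites without it among the 616 sites of 50 bases, or 39.4%. In windows of 50 bases at every position of 21667 coding transcripts, 49.7% have no RRACH, so a 50-base site without a match is common. The C1qc site is longer and has more room for a match: of windows of 98 bases on the same transcripts, 24.8% have no RRACH and 14.4% no DRACH. It is 1 of 6 sites longer than 50 bases, which result from merging adjacent significant bins. The others, in Tmem119, Fgd3, Kctd3, Heca and Twistnb, have between 1 and 4 RRACH matches each. Of the 17 placed sites that hold a whole stop codon, C1qc among them, 8, or 47.1%, have RRACH.

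Both C1q sites are also low in adenosine, the base that m6A modifies. The C1qb site is 74.0% G and C and has 3 adenosines in 50 bases, and 1 of them is followed by C. Over all 622 sites the median GC content was 52.0% (quartiles 44.0% and 60.0%) and the median share of adenosine 26.0%. A GC content at least as high as in C1qb was found in 17 of the 622 sites, or 2.73%, and a share of adenosine at least as low in 12, or 1.93%. The C1qc site is less extreme, with 61.2% G and C and 14.3% adenosine. At least its GC content is found in 135 of the 622 sites, and a share of adenosine at least as low in 70, or 11.3%. The C1qc site is described further by its dinucleotides. It has 6 AC dinucleotides, 1 of them in GAC and 2 in AAC, but with none of these do the flanking bases complete RRACH. Glycine codons begin with GG, and the Gly-X-Y run of C1qb as a whole is 64.8% G and C, that of C1qa 61.8% and that of C1qc 71.5%. The run of C1qb holds 6 RRACH matches, all outside the site, and those of C1qa and C1qc hold 4 each.

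**Figure D3:**
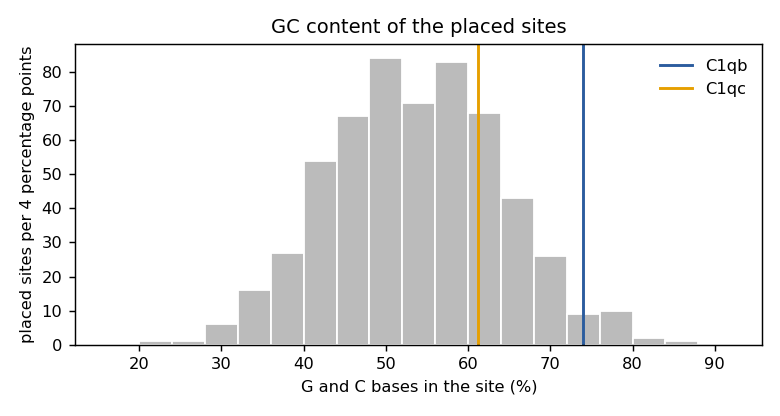
The histogram shows the percent of G and C bases in the 569 placed DM sites, in steps of 4 percentage points, and the vertical lines mark the site of C1qb (blue, 74.0%) and that of C1qc (orange, 61.2%). C1qb is in the upper tail and C1qc to the right of the peak.

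The C1q transcripts themselves are not poor in RRACH. C1qb has 24 matches, or 22.1 per kb, C1qc has 16, or 13.3 per kb, and C1qa has 16, or 15.4 per kb. The median over the 543 transcripts with a placed site was 14.6 per kb (quartiles 13.1 and 16.4), so that C1qb is above the upper quartile and C1qc between the quartiles. In C1qb, 15 of the matches are in the CDS, 4 in the 3′UTR and 5 in the 5′UTR. Of its 24 matches, 17 are in exon 3 and 2 in exon 2, the exon that holds the site. In C1qc, 10 are in the CDS, 3 in the 3′UTR and 3 in the 5′UTR.
The matches nearest to each site are shown with 12 bases on either side, since the fragments that the antibody pulls down can be longer than a bin. RRACH matches are in capitals. For C1qb the nearest match upstream is GGACA in exon 2, on chr4:136882266-136882294, and the nearest downstream is GGACT at the start of exon 3, whose window is joined across the intron and runs from chr4:136880845 to 136882130. For C1qc the nearest upstream is GAACC in the CDS of exon 3, on chr4:136890219-136890247, and the nearest downstream is AGACC in the 3′UTR, on chr4:136889961-136889989.
C1qb upstream: ggggtgaggtctGGACAcacctgttactg
C1qb downstream: aaagggctccctGGACTggctggagacct
C1qc upstream: gtgcgtgcacctGAACCtcaaccttgcca
C1qc downstream: ccatcctcactcAGACCtcttcctccagg
The C1qb site is nearly in the middle between its neighbours, with GGACA 56 bases before its first base and GGACT 55 bases after its last. The C1qc site is much closer to the RRACH match on the 3′ side, which begins 16 bases after it, while GAACC ends 141 bases before it. This difference holds for RRACH only, since a match of the wider motif DRACH, TGACT, ends 21 bases before the C1qc site. With 50 bases added on each side, C1qb still had 0 RRACH matches and C1qc had 1.

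The site sequences were also searched for in the rest of the genome. When a match had to be 95% identical and to cover 95% of the site, 0 were found elsewhere in the genome for C1qb and 0 for C1qc. The longest other alignment was 33 bases for C1qb and 31 bases for C1qc. Only the letters of the sites were searched, and the part of reads from other places was not tested.

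Listing was then counted over the complement genes. Of 41 genes of the complement pathway, 3 have a DM site: C1qb, C1qc and C1s1, which encodes a C1s protease of the C1 complex that C1q activates. The C1s1 site lies on chr6:124531239-124531288, in the CDS within exon 12 of 12, with its midpoint at -319.5 bases from the last base of the stop codon. Like both C1q sites it has 0 RRACH matches, but it has 1 DRACH match and its GC content is 44.0%. Of 29 genes with a C1q domain, 3 have a site: C1qb, C1qc and Emilin1, which encodes an elastic fibre glycoprotein. Emilin1 has 2 sites in the CDS, with 1 and 0 RRACH matches and 64.0% G and C in each. C1qb and C1qc are in both lists by construction, so their listing is no result of the lists. Without C1qb and C1qc, 1 of 39 complement genes has a site, or 2.56%, beside 571 of 21677 protein-coding genes, or 2.63%. The 21677 are all annotated protein-coding genes, tested or not, so the share among tested genes is unknown here. The 571 also include genes matched by a synonym, whereas genes of the lists were matched by symbol only. Whether complement genes are listed more often than other tested genes was therefore not tested.
Of 28 markers in a chosen list for Kupffer cells and macrophages, C1qb and C1qc have a site, and they are in the list by construction. The other 26 markers, among them Clec4f, Vsig4, Timd4, Cd5l, Marco and Adgre1, have none. The list is not complete for these cells, and Clec1b, a gene outside it, has a listed site in the 5′UTR. Other genes of myeloid cells outside the chosen lists also have listed sites, among them Cd200r1, Dok2 and Il1b. These 3 were named after the sites were seen, and the counts depend on which markers were chosen. Of 17 hepatocyte markers, 1 has a site, Apob, which encodes the main protein of the very low density lipoproteins, and of 11 markers of sinusoidal endothelial cells 1 has a site, Eng, which encodes endoglin. None of 10 stellate cell, 6 cholangiocyte, 7 monocyte and neutrophil and 8 lymphocyte markers has one. These are counts of listing only, to be read beside the 571 of 21677 protein-coding genes, tested or not, or 2.63%, that have a site. The lists are short, and their counts were not tested against that share. Since the table has no expression values, the amount of Kupffer cell RNA in the livers of either genotype was not tested.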

How the data were processed

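m6A-seq libraries were made by the authors from livers of 4 wild type and 4 Mettl14 knockout mice. Per the labels and methods, reads were mapped to mm10 with HISAT2 (version not given in the sources used here), counted in bins of 50 bases on concatenated exons, tested for genotype with RADAR, and significant adjacent bins were merged. The authors deposited 1 table of 622 sites with name, position, strand and exon blocks, and with a logFC and a p-value of their own comparison, which were not used. The FDR cutoff is not given in the sources used here.
Rows named C1qb or C1qc were taken. Sequences were read from GRCm38.p6 (RefSeq), the assembly of mm10, with pysam 0.24.0, counting from 1 with both ends included. Sites were placed on the longest protein-coding transcript in GENCODE M21: 585 had a matching symbol, 21 a matching synonym in RefSeq and 16 no match, and 569 lay wholly on it. Other genome matches were searched with BLAST+ 2.17.0 (word size 16). Wilson intervals (95%) came from statsmodels 0.14.6. The motif search and coordinate conversion were tested on simulated data.
No test was made, since 2 sites of a selected table allow none. Genes were named by list: the C1q genes and their neighbours, and any complement, C1q-domain or cell marker gene with a site. Some genes outside these lists are also named in the text. The members and lists were chosen with earlier results of these data known. The planned comparison of protein sequences was not made. Alternatives were other motifs, flanks, coordinate counting and reference points.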

Additional observations from a re-analysis of the deposited data

How the results depend on the processing

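The region and exon of both C1q sites stayed as given when every coding transcript was used (each gene has 1) and when starts were counted from 0. Measured to the transcript end instead of the stop codon, the midpoints lie at -811.5 bases for C1qb and -237.5 bases for C1qc. RRACH, DRACH and GGAC gave 0 matches in both sites, RRACH also with starts counted from 0, and with 50 bases added on each side RRACH still had 0 in C1qb and had 1 in C1qc. With the same 50 bases added, the GC content was 62.0% instead of 74.0% for C1qb and 57.6% instead of 61.2% for C1qc. The share of all sites with the motif was 69.1% for DRACH and 26.4% for GGAC. Without the C1q genes, 0 of the 25 Kupffer cell markers in the chosen list had a site, beside 2.63% of all protein-coding genes, tested or not. No paired analysis was possible because the table holds no value per mouse, although INPUT and IP libraries share mouse numbers, and no mouse could be left out. Depth is unknown.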

Other observations

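Both C1q sites lie within the longest stretch without RRACH of their transcript, a comparison added after the sites were seen. The C1qb site lies in 159 bases without a match, from base 197 to 355 of the transcript, the longest of 25 such stretches, and the second longest has 134 bases. The C1qc site lies in 253 bases without a match, from base 777 to 1029, the longest of 17, and the second longest has 161 bases. Over all placed sites, 32 of 569, or 5.62% (95% Wilson interval 4.01% to 7.83%, counting error over sites only), lie wholly in the longest such stretch of their transcript, and among the 229 placed sites without RRACH the share is 14.0%. Longer stretches hold more windows and C1q transcripts are short, so these shares describe the table and were not tested.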
